A study of Mus musculus with 12 samples.

Results

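The genes described here are Trp53, which encodes the transcription factor p53, and 9 of its target genes: Mdm2, Ccng1, Bbc3, Pmaip1, Bax, Fas, Phlda3, Zmat3 and Trp53inp1. The 10 genes were taken by symbol from the tables of estimated counts and of TPM (a level per transcript length, relative to the library), which hold 30154 genes, and followed through all 12 libraries. RNA was sequenced from muscle stem cells, the cells that rebuild muscle fibres, sorted by flow cytometry from the tibialis anterior, gastrocnemius and quadriceps of C57BL/6J mice aged 2-3 months. The 6 groups were wild-type mice and mice with a Sestrin1,2 knockout, each before injury (day 0) and at days 7 and 21 after it, with 2 libraries per group. No group carried another allele or agent in the labels, which do not give the kind of injury, the sex, or how the knockout was made. The labels do not say that the 2 libraries of a group came from separate mice, so p-values measure the spread between these libraries, which may be technical. All 10 genes passed the filter on low counts, with between 94.2 and 7244 estimated counts per library, and 15890 genes in all were tested.

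p53 is kept low in unstressed cells by Mdm2, a ubiquitin ligase that is itself a p53 target, and stress such as DNA damage releases it, mostly at the level of the protein. Stabilised p53 binds response elements near its target genes and raises genes that stop the cell cycle (Cdkn1a, also called p21), start apoptosis (Bax, Bbc3, Pmaip1, Fas) or limit its own action (Mdm2, Ccng1). Sesn1 and Sesn2, the genes removed here, are p53 targets too, and their products restrain mTORC1 and oxidative stress. In muscle stem cells p53 is known for roles in keeping the resting state and in survival during activation.

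A p53 response element is made of a pair of 10-base half-sites separated by a short spacer. Promoters from RefSeq (GRCm38.p6), from 250 bases before to 50 after a gene's start, were found for 7 of the 10 genes, but not for Pmaip1, Zmat3 or Trp53inp1. They were searched on both strands with the published p53 half-site consensus, and for pairs of half-sites with a spacer of at most 13 bases and at most 2 mismatches outside the core bases. A single half-site occurred in 8.36% of the 32851 promoters in the table and a pair in 2.12%. Such a match is a description of the letters and not a measured binding site. Mdm2's best known p53-responsive promoter lies in its first intron, outside this window. The windows of 100 bases that hold matches are shown, and their relation to the changes in the libraries was not tested. Capitals mark the matched half-sites, and each window is given 5′ to 3′ on the gene's strand.
Trp53, chr11:69580238-69580337, plus strand: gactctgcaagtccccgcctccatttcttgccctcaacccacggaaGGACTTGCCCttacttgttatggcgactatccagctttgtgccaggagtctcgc
Mdm2, chr10:117710891-117710990, minus strand: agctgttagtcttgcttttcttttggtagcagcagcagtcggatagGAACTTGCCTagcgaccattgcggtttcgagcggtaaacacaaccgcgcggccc
Ccng1, chr11:40755418-40755517, minus strand: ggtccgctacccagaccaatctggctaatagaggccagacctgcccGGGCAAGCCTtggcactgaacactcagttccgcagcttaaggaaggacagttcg
Bax, chr7:45467048-45467147, minus strand: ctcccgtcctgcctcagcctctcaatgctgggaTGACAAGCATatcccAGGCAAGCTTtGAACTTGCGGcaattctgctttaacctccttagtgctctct
Cdkn1a, chr17:29090876-29090975, plus strand: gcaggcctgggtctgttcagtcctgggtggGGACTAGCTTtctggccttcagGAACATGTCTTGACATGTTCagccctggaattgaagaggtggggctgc
Sesn1, second start, chr10:41887214-41887313, plus strand: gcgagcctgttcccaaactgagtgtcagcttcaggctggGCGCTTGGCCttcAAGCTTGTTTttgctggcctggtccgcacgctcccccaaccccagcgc
The Cdkn1a window held 2 pairs that share the middle half-site: the first has 0 mismatches outside the cores and a spacer of 12 bases, and the second has 1 mismatch and no spacer. The Bax window held 2 pairs with 2 mismatches each, with spacers of 5 and 1 bases, which also share the middle half-site. The Sesn1 window held 1 pair with 2 mismatches and a spacer of 3 bases, and the Trp53, Mdm2 and Ccng1 windows a single half-site. No half-site was found in the promoters of Fas, Phlda3 and Sesn2 or in the 3 promoters of Bbc3 within this window. The Cdkn1a window shown lies at the first start of that gene. No half-site was found at its second start (promoter chr17:29093519-29093818) or at the first start of Sesn1 (promoter chr10:41810324-41810623).

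The libraries had between 28396780 and 38950514 estimated counts. The targeted genes check the labels at days 0 and 7. Sesn2 was at 75.1 and 84.3 CPM (counts relative to library size, scaled by TMM) for the wild-type pair of day 0, against 5.47 and 7.03 for the knockout pair. The pairs of day 7 read 44.9 and 47.4 against 2.36 and 1.92. At day 21 it went against the labels of 2 libraries: 8.92 and 82.1 CPM in the pair labelled wild type and 9.86 and 108 CPM in those labelled knockout. Day 21 is therefore described by label, and for the 10 genes, Sesn1 and Sesn2 the fit on all 12 libraries is set beside a fit without the 4 day 21 libraries where a call differs. The Sesn2 log2 fold change between genotypes was -3.68 before injury (edgeR adjusted p = 0.058 over the 12 libraries, 6.35e-06 without day 21) and -4.42 at day 7 (edgeR adjusted p = 0.17 and 6.19e-06). From day 0 to day 7 Sesn2 gave -0.79 in wild type and -1.54 in knockout (edgeR adjusted p of 0.584 and 0.371 with all 12 libraries, 0.00048 and 6.12e-05 without day 21), and the interaction was -0.75 (adjusted p 0.822 and 0.0353). Sesn1 kept reads in knockout, at 46.0 and 45.8 CPM against 70.3 and 68.6 in wild type at day 0, a difference of -0.60 with an edgeR adjusted p of 0.144 in all 12 libraries and 0.00468 without day 21; its interaction at day 7 was -0.98 (adjusted p 0.137 and 0.00547).

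Markers of muscle stem cells were present in every library: each of the 10 markers reached at least 1 TPM in every group. Markers of other cells were present too, with summed levels of 5318 to 11526 TPM for 6 fibro-adipogenic markers and 2097 to 7550 TPM for 4 mural cell markers. Several lists moved with genotype at day 0. The sum of the 4 skin markers was 92.1 to 99.4 TPM in wild type and 2.37 to 2.70 TPM in knockout, where Krt5, Krt14 and Krt79 stayed below 1 TPM. The sum of the 5 red blood cell markers was 3121 to 3128 against 742 to 782 TPM, that of the 10 muscle stem cell markers 708 to 711 against 476 to 509 TPM, and that of the 9 cell cycle markers 62.8 to 65.4 against 19.1 to 20.8 TPM. The 4 mural markers summed to 4950 to 4959 TPM in wild type and 7533 to 7550 TPM in knockout, and the 3 Schwann cell markers to 524 to 564 and 732 to 752 TPM. The 6 endothelial markers summed to 82.6 to 92.2 TPM in wild type and 114 to 116 TPM in knockout. The 6 fibro-adipogenic markers summed to 7468 to 7608 TPM in wild type and 5318 to 5339 TPM in knockout, and the 6 muscle fibre markers to 85.4 to 94.2 and 60.0 to 65.2 TPM. The 11 dissociation stress markers, genes such as Fos and Jun that respond fast when tissue is taken apart, summed to 11527 to 12246 TPM in wild type and 14832 to 16005 TPM in knockout. Their part in the results below was not tested. In bulk samples, fewer cells of a type and less RNA per cell cannot be told apart.

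Compared per length, in median TPM over the 12 libraries, Trp53 was the most abundant of the 10 genes at 131 TPM, followed by Phlda3 at 107, Mdm2 at 91.3, Bax at 66.1, Fas at 56.9 and Ccng1 at 23.6 TPM. Bbc3 at 14.7, Pmaip1 at 10.6, Trp53inp1 at 9.31 and Zmat3 at 1.43 TPM were the least abundant. Trp53 lay at percentile 93.6 of the 17876 genes with a median TPM above 0, and Zmat3 at percentile 33.1. Cdkn1a, which is not one of the 10, had 1325 TPM. The genes also differed in how far they ranged over libraries: the highest CPM was 7.48 times the lowest for Pmaip1, 3.30 times for Bbc3, and between 1.44 times (Mdm2) and 2.69 times (Zmat3) for the other 8.

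**Figure D1:**
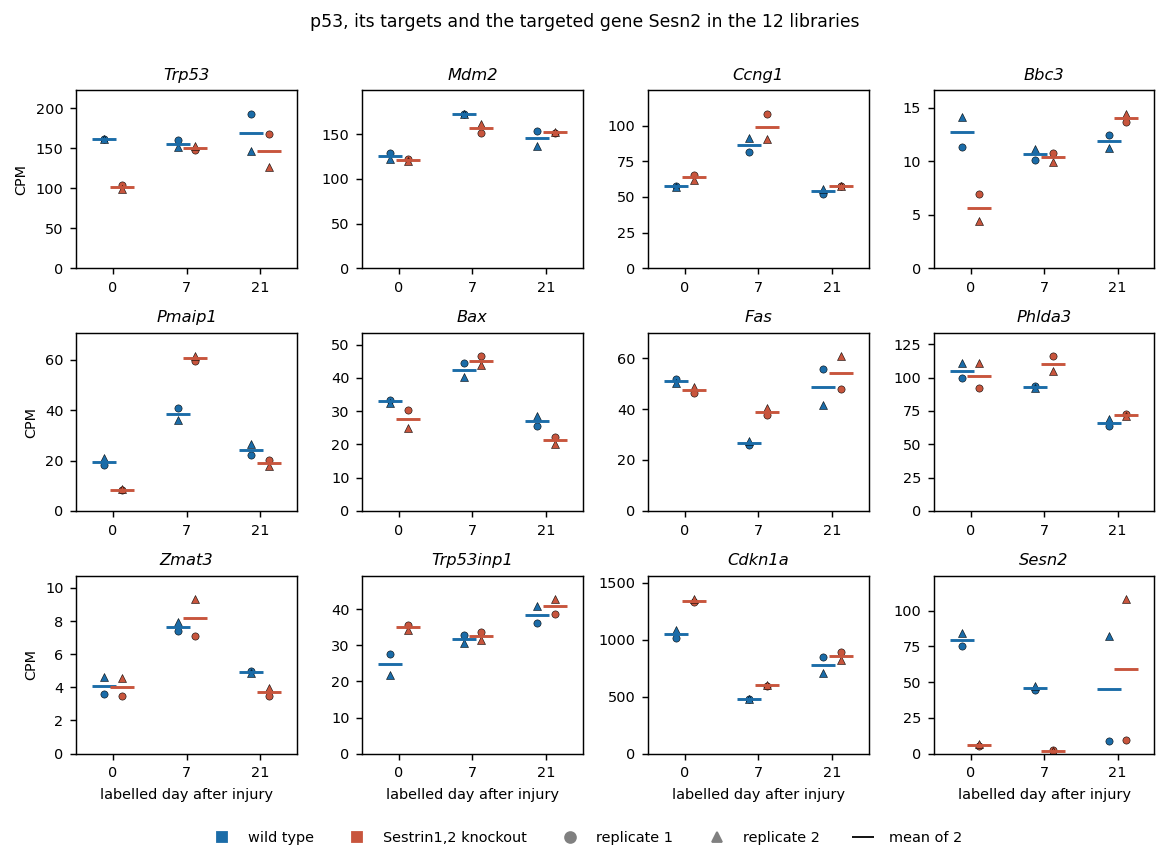
Each panel plots one gene: the vertical axis is CPM from 0 and the horizontal axis the labelled day, with blue for wild type, red for Sestrin1,2 knockout, circles for replicate 1, triangles for replicate 2 and bars for the mean of 2. Pmaip1 in knockout goes from 8.21 and 8.54 CPM at day 0 to 59.7 and 61.4 CPM at day 7, and Sesn2 splits by replicate and not by label at day 21.

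Trp53 itself (chr11:69580359-69591873, plus strand, GRCm38) was lower in resting knockout cells than in any other group. At day 0 it measured 162 and 161 CPM for wild type and 104 and 98.5 CPM for knockout. The knockout level was 0.626 of the wild-type level, a log2 fold change of -0.68 (SE 0.150, adjusted p = 0.00896, edgeR quasi-likelihood test). At day 7 the libraries were at 160 and 152 CPM for wild type and 147 and 152 CPM for knockout, so the genotypes overlapped. Trp53 rose by day 7 in knockout, by 0.57 (SE 0.150, edgeR adjusted p = 0.00996), while wild type gave -0.05 (SE 0.149, edgeR adjusted p = 0.794). The difference between those changes, 0.62 (SE 0.211), had an edgeR adjusted p of 0.0784 in all 12 libraries and 0.00169 without those of day 21. At day 21 the libraries labelled wild type held 193 and 146 CPM and those labelled knockout 167 and 126 CPM. Replicate 1, low in Sesn2, was the higher one under both labels. Without knockout replicate 2 of day 0 the day 0 difference was -0.63 with an edgeR adjusted p of 0.0846, and without wild-type replicate 1 or 2 the adjusted p was 0.0592 or 0.0572. Trp53 shares 95.0% identity over 1170 bases with the pseudogene Trp53-ps, which had at most 3.17 estimated counts in any library.

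Mdm2 (chr10:117688875-117710758, minus strand), the ligase that degrades p53, did not follow Trp53 at day 0. Its day 0 levels were 129 and 122 CPM for wild type and 123 and 121 CPM for knockout, which overlap, and the edgeR log2 fold change was -0.05 (SE 0.0849, adjusted p = 0.741). At day 7 it reached 173 and 173 CPM for wild type and 152 and 162 CPM for knockout. Both genotypes rose, by 0.46 (SE 0.0849, edgeR adjusted p = 0.00134) in wild type and by 0.37 (SE 0.0849, edgeR adjusted p = 0.00506) in knockout. Without knockout replicate 2 of day 0 the knockout change was 0.32 with an adjusted p of 0.0637. At day 21 Mdm2 was at 154 and 138 CPM in the pair labelled wild type and 152 and 153 CPM in those labelled knockout. The ratio of Mdm2 to Trp53 in TPM was 0.536 and 0.552 for wild type before injury and 0.820 and 0.852 for knockout. All 4 libraries of day 7 lay between 0.707 and 0.764, and the 4 of day 21 between 0.584 and 0.846. An exact two-sided permutation test of the day 0 ratio gave p = 0.333, the smallest p that 2 libraries against 2 allow.

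Pmaip1 (chromosome 18, 66458533 to 66465565, plus strand), which encodes the BH3-only protein Noxa that triggers apoptosis by binding Mcl1, ranged most widely among the 10. At day 0 it was at 18.2 and 21.0 CPM for wild type and at 8.21 and 8.54 CPM for knockout, with no overlap. At day 7 the order was the other way round, with 40.7 and 36.0 CPM for wild type and 59.7 and 61.4 CPM for knockout. The knockout level was 0.427 of the wild-type level at day 0 (log2 fold change -1.23, SE 0.138, edgeR adjusted p = 0.000557) and 1.58 times that level at day 7 (0.66, SE 0.131, edgeR adjusted p = 0.0365). Pmaip1 rose 1.96-fold by day 7 in wild type (0.97, edgeR adjusted p = 0.00023) and 7.23-fold in knockout (2.85, edgeR adjusted p = 3.63e-07). The knockout change exceeded the wild-type one by 1.89 (SE 0.191, edgeR adjusted p = 0.000959). The day 7 difference between genotypes lost its call when any 1 library of day 0 or day 7 was left out. Over the fits without 1 library it was 0.57 to 0.75. Its call was also lost with the replicate block (edgeR adjusted p = 0.06) and by limma on log2(TPM + 1) (0.105) and log2(TPM + 0.1) (0.118). The day 0 difference and the interaction kept their calls in all of these. At day 21 the values were 22.2 and 26.4 CPM in the pair labelled wild type and 20.2 and 17.7 CPM in those labelled knockout, all above the day 0 knockout libraries.

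Bbc3 (chr7:16308393-16318205, plus strand), which encodes Puma, another BH3-only activator of apoptosis, was also lowest in the day 0 knockout libraries, at 6.93 and 4.38 CPM. The other 10 libraries lay between 9.94 and 14.5 CPM: wild type had 11.4 and 14.2 at day 0 and 10.2 and 11.1 at day 7, knockout had 10.8 and 9.94 at day 7, and the libraries of day 21 had 12.5 and 11.3 labelled wild type and 13.7 and 14.5 labelled knockout. The day 0 difference was -1.17 (SE 0.215, edgeR adjusted p = 0.00378), and the change by day 7 was 0.87 in knockout (SE 0.214, edgeR adjusted p = 0.0071) and -0.26 in wild type (SE 0.208, edgeR adjusted p = 0.325). The changes differed by 1.13 (SE 0.299, edgeR adjusted p = 0.034). This interaction lost its call without knockout replicate 2 or either wild-type replicate of day 0, and without any library of day 7, with adjusted p of 0.0658 to 0.136. Without knockout replicate 2 of day 0 the knockout change was 0.55 with an adjusted p of 0.0755.

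Bax (chr7:45461697-45466898, minus strand), the pore-forming protein that BH3-only proteins set off, rose in both genotypes by day 7. It was at 33.5 and 32.4 CPM for wild type and 30.2 and 25.0 CPM for knockout at day 0, and at 44.4 and 40.2 CPM and 46.5 and 43.8 CPM at day 7. The rises were 0.36 in wild type (SE 0.125, edgeR adjusted p = 0.0349) and 0.71 in knockout (SE 0.126, edgeR adjusted p = 0.001), and their difference of 0.35 (SE 0.176) had an edgeR adjusted p of 0.224. The wild-type rise lost its call without any one wild-type library of day 0 or day 7, with adjusted p of 0.0565 to 0.187, and also with median-of-ratios size factors (0.053), with no filter on low counts (0.0581) and on the batch-corrected log2 values (limma, 0.0556). On log2(TPM + 1) and log2(TPM + 0.1) it was larger, at 0.58 and 0.59 (limma adjusted p of 0.00359 and 0.00367). Bax levels of day 21 were 25.5 and 28.5 CPM in the pair labelled wild type, which overlaps knockout at day 0, and 22.3 and 20.1 CPM in those labelled knockout, the lowest of the 12 libraries. Exons of Bax overlap Gm45808, a gene on the same strand that is not named in the tables, so reads of the pair may not be separated.

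Fas (chr19:34290666-34327772, plus strand), the death receptor of the cell surface, fell after injury in wild type, where Pmaip1 and Bax rose. It was at 51.8 and 50.5 CPM for wild type and 46.2 and 48.7 CPM for knockout at day 0. By day 7 it was at 25.8 and 27.5 CPM for wild type and at 37.5 and 40.5 CPM for knockout, below every library of days 0 and 21. The wild-type level at day 7 was 0.521 of that at day 0 (log2 fold change -0.94, SE 0.152, edgeR adjusted p = 0.000629), and the knockout change was -0.28 (SE 0.151, edgeR adjusted p = 0.151; 0.0156 without the day 21 libraries). The knockout exceeded wild type at day 7 by 0.55 (SE 0.151), with an edgeR adjusted p of 0.114 in all 12 libraries and 0.00757 without those of day 21. The interaction was 0.66 (SE 0.213), with an edgeR adjusted p of 0.0682 and 0.00605 in the same fits.

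Ccng1 (chr11:40748552-40755311, minus strand), which encodes the Mdm2-activating cyclin G1, and Zmat3 (chr3:32334792-32366014, minus strand), an RNA-binding growth suppressor, rose by day 7 in both genotypes and did not pass the test against day 0 at day 21. Ccng1 went from 58.1 and 56.8 CPM to 81.3 and 91.3 CPM in wild type, a rise of 0.59 (SE 0.108, edgeR adjusted p = 0.00136). In knockout it went from 65.7 and 62.2 CPM to 109 and 90.4 CPM, a rise of 0.64 (SE 0.108, edgeR adjusted p = 0.000757). The 4 libraries of day 21 lay between 52.1 and 57.8 CPM, which overlaps wild type at day 0. Zmat3 was between 3.47 and 4.62 CPM in the 4 libraries of day 0, between 7.07 and 9.32 CPM at day 7 and between 3.47 and 4.99 CPM at day 21. It rose by 0.90 (SE 0.233, edgeR adjusted p = 0.00961) in wild type and by 1.03 (SE 0.235, edgeR adjusted p = 0.00457) in knockout. Without wild-type replicate 1 of day 0 the wild-type value was 0.71 (adjusted p 0.0929), and without knockout replicate 1 of day 0 the knockout value was 0.84 (adjusted p 0.051). By limma on log2(TPM + 1) the rise was smaller, 0.59 (adjusted p 0.0461) in wild type and 0.54 (0.0665) in knockout, as it was on the batch-corrected log2 values, 0.48 (0.0298) and 0.49 (0.0276). On log2(TPM + 0.1) it was 0.88 (0.0633) and 0.87 (0.0689). The interactions, 0.05 (SE 0.152) for Ccng1 and 0.13 (SE 0.328) for Zmat3, had edgeR adjusted p of 0.872 and 0.842.

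Phlda3 (chr1:135766119-135769136, plus strand), which opposes Akt at the membrane, did not pass the test between genotypes or by day 7. Its day 0 libraries spanned 91.9 to 111 CPM and its day 7 libraries 92.0 to 116 CPM. The 4 libraries of day 21 were lower than all others, at 63.3 and 68.8 CPM labelled wild type and 72.8 and 71.0 CPM labelled knockout. The falls from day 0 were -0.67 (SE 0.111, edgeR adjusted p = 0.0014) and -0.50 (SE 0.111, edgeR adjusted p = 0.00762). Trp53inp1 (chr4:11156431-11174379, plus strand), a cofactor of p53 that also acts in autophagy, was the 1 gene of the 10 that was higher in knockout at day 0. It was at 35.8 and 34.3 CPM there against 27.6 and 21.9 CPM in wild type, a log2 fold change of 0.50 (SE 0.132, edgeR adjusted p = 0.0193). At day 7 all 4 libraries lay between 30.5 and 33.7 CPM and the genotypes overlapped. Day 21 had 36.1 and 40.9 CPM in the pair labelled wild type, higher than wild type at day 0 by 0.64 (SE 0.132, edgeR adjusted p = 0.00457), and 38.8 and 42.8 CPM in those labelled knockout. Without knockout replicate 1 or 2 or wild-type replicate 2 of day 0, the day 0 difference lost its call, with adjusted p of 0.0939, 0.0723 and 0.14. It was also lost by limma on log2(TPM + 1) (adjusted p 0.116), on log2(TPM + 0.1) (0.108) and on the batch-corrected log2 values (0.0516).

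**Figure D2:**
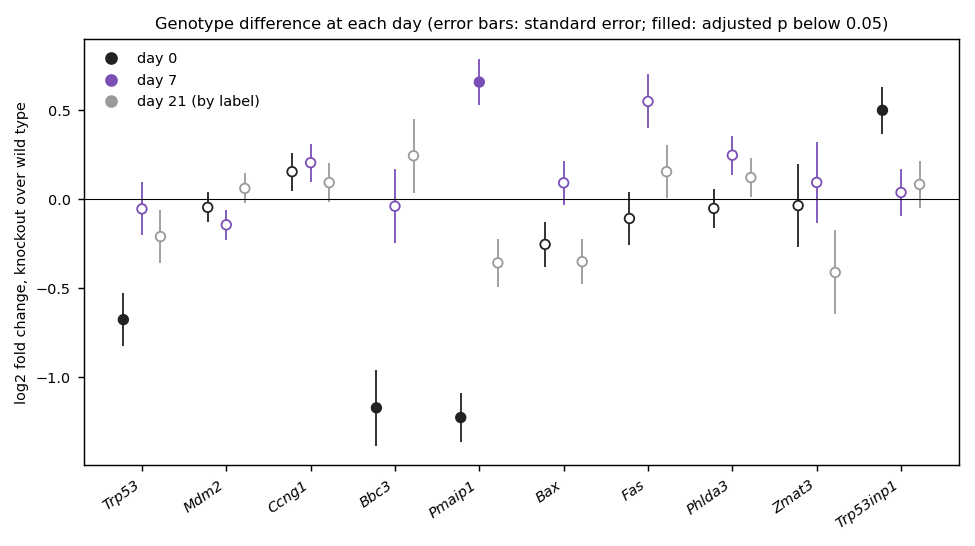
The vertical axis is the edgeR log2 fold change of Sestrin1,2 knockout over wild type with its standard error, for each gene at day 0 (black), day 7 (purple) and day 21 by label (grey); filled points passed an adjusted p of 0.05. Trp53 at -0.68, Bbc3 at -1.17 and Pmaip1 at -1.23 lie below 0 at day 0, and Pmaip1 lies at 0.66 at day 7.

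The comparison of genotypes at day 0 asks what loss of the Sestrins changes in resting cells. Among the 10 p53 genes, 3 were lower in knockout (Trp53, Bbc3, Pmaip1) and 1 was higher (Trp53inp1), with the same 4 called in the fit without day 21, where 38.9% of all genes were called. Of the 15890 genes tested, 12.6% were called lower and 14.8% higher. The genotypes did not overlap for 7 of the 10 genes, against 75.1% of all genes. The median log2 fold change was -0.08 over the 10 genes and 0.00 over all genes tested. The count of 4 fell to 2 (Bbc3 and Pmaip1) without replicate 2 of either genotype at day 0, where 10.1% to 12.3% of all genes were called.

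At day 7, 1 of the 10 genes was called higher in knockout, Pmaip1, and 0 were called lower, where 1.08% of all genes were called higher and 0.68% lower. At an unadjusted edgeR p under 0.05 there were 3 (Pmaip1, Fas and Phlda3), against 14.3% of all genes. The genotypes did not overlap for 4 genes, with Mdm2 lower and Pmaip1, Fas and Phlda3 higher in knockout, against 47.4% of all genes. The fit without the day 21 libraries and DESeq2 each called 2, Pmaip1 and Fas, where they called 7.46% and 5.26% of all genes. The count was 2 without either library of day 21 labelled wild type (3.68% and 3.76% of all genes called) and 0 without any one library of day 0 or 7 (0.0909% to 0.806%). By label at day 21, 0 of the 10 were called by edgeR or DESeq2. Of all genes, edgeR called 0.00629% in each direction and DESeq2 called 4.07%. An unadjusted edgeR p under 0.05 was found for 2 (Pmaip1 and Bax) and for 14.2% of all genes. All day 21 values rest on the labels of 2 libraries that Sesn2 contradicts.

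In wild type at day 7, 6 rose (Mdm2, Ccng1, Pmaip1, Bax, Zmat3, Trp53inp1) and Fas fell, where 25.8% of all genes rose and 21.2% fell. The Trp53inp1 rise, 0.36 (SE 0.132, edgeR adjusted p = 0.0467), lost its call in 9 of the 12 fits without 1 library: those of days 0 and 7 except wild-type replicate 1 of day 0, and the 2 labelled knockout of day 21, at adjusted p of 0.053 to 0.361. Only 4 of the 21 alternatives called it: DESeq2 gave an adjusted p of 0.0653, and limma on the batch-corrected values a change of 0.045 (adjusted p 0.856). In knockout at day 7, 7 rose (Trp53, Mdm2, Ccng1, Bbc3, Pmaip1, Bax, Zmat3) and 0 fell, where 24.7% rose and 22.2% fell; without the day 21 libraries the same 7 rose and Fas fell, with 27.6% and 26.6% of all genes. Without knockout replicate 2 of day 0 that count was 4 (16.6% of all genes rose there), with Trp53 at 0.50 (adjusted p 0.0888). The median log2 fold change of the 10 was 0.36 in wild type and 0.60 in knockout, against 0.06 and 0.03 over all genes. Both genotypes are set against their own day 0 libraries, so the low day 0 levels of Trp53, Bbc3 and Pmaip1 in knockout enter both the day 0 difference and the rise. Markers of other cells moved by day 7 too. In wild type 4 of the 5 macrophage and other blood markers tested and 6 of 6 muscle fibre markers rose, while 5 of 5 red blood cell and 3 of 3 Schwann cell markers fell. In knockout 5 of 5 and 6 of 6 rose, and 1 of 5 and 3 of 3 fell. The macrophage and other blood markers summed to 4.08 to 5.09 TPM in the day 0 libraries and 15.0 to 52.6 TPM in those of day 7. All 9 cell cycle markers rose in each genotype. The part of these lists in the changes of the 10 genes was not tested.

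The interaction tests whether the change by day 7 differed between genotypes. Of the 10 genes, 2 were called, Pmaip1 and Bbc3, both with a larger change in knockout, and 0 with a smaller one, where 6.08% of all genes were called in the first direction and 7.39% in the other. DESeq2 and the edgeR fit without day 21 each called 4, with Trp53 and Fas added, where the shares of all genes called also rose, to 18.7% and 24.8%. The fits without either day 21 library labelled wild type called 4 as well, with 17.2% and 17.3% of all genes, and 1 gene, Pmaip1, was left without any library named above for Bbc3, with 3.52% to 10.2%. The cell cycle markers summed to 579 to 625 TPM in wild type and 633 TPM in both knockout libraries at day 7, and the muscle fibre markers to 1654 to 2485 and 2302 to 3463 TPM. In the same interaction 4 of the 9 cell cycle markers were called with a larger change in knockout and 0 with a smaller one (median 1.87), as were 3 of the 6 muscle fibre markers (median 1.05). Of the 10 muscle stem cell markers 3 had a larger and 2 a smaller change in knockout. The part of these lists in the Pmaip1 and Bbc3 values was not tested.

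**Figure D3:**
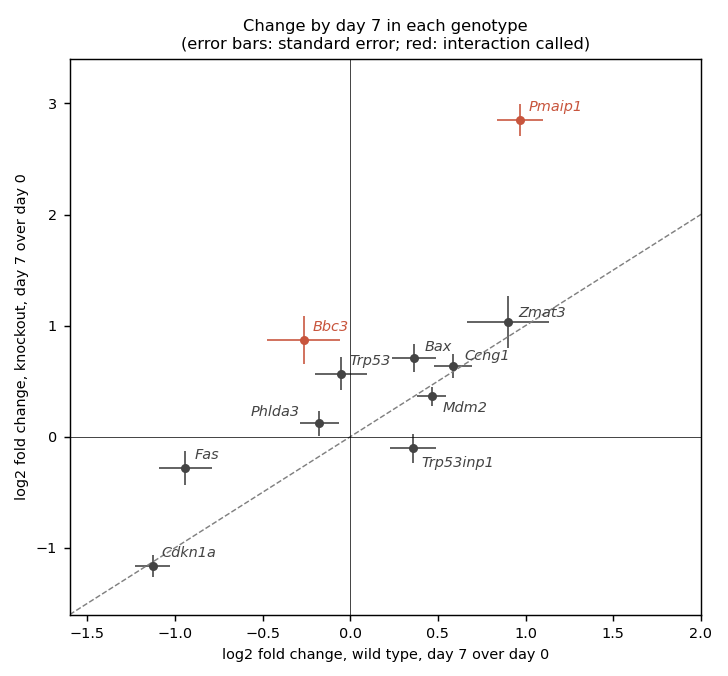
Each point is one gene, with its log2 fold change from day 0 to day 7 in wild type on the horizontal axis and in Sestrin1,2 knockout on the vertical axis, with standard errors; the dashed line marks equal change and red marks a called interaction. Pmaip1 lies at 0.97 and 2.85 and Bbc3 at -0.26 and 0.87, both above the line, while Cdkn1a lies on it at -1.13 and -1.16.

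At day 21 against day 0, 1 of the 10 genes rose in the pair labelled wild type (Trp53inp1) and 1 fell (Phlda3), where 20.4% of all genes rose and 15.5% fell. Mdm2 gave 0.21 in that pair (edgeR adjusted p = 0.0728), with 0.13 to 0.43 over the alternatives. It was called by limma on both TPM scales and on the batch-corrected values. In the libraries labelled knockout, 4 rose (Trp53, Mdm2, Bbc3, Pmaip1) and 2 fell (Bax, Phlda3), where 16.9% rose and 14.1% fell. Pmaip1 stood 1.18 above its day 0 level there (SE 0.139, edgeR adjusted p = 0.000266), Bbc3 1.31 (SE 0.215, edgeR adjusted p = 0.00157) and Trp53 0.54 (SE 0.150, edgeR adjusted p = 0.0213). Trp53 gave 0.31 (adjusted p 0.178) without the Sesn2-low replicate 1 labelled knockout, and Mdm2 lost its call without either library labelled knockout (adjusted p 0.0574 and 0.0605). Bax lost its call without any one library other than knockout replicate 2 of day 0 and the 2 of day 21 labelled wild type, at adjusted p of 0.0519 to 0.305, and also with no filter (0.0599) and by limma on both TPM scales (0.14 and 0.138) and the batch-corrected values (0.0508). The Trp53 and Mdm2 calls were also lost without either knockout replicate of day 0 (0.0814 and 0.132 for Trp53, 0.0788 and 0.117 for Mdm2) and that of Phlda3 without knockout replicate 2 of day 0 (0.0712), and the count of 6 fell to 3 without either knockout replicate of day 0 or replicate 1 labelled knockout of day 21 (16.2%, 16.9% and 24.0% of all genes called). Markers of other cells moved in the same comparison: 4 of 5 red blood cell markers rose (summed level 742 to 782 TPM at day 0 and 2077 to 3552 TPM at day 21), as did 3 of 4 skin and 6 of 6 muscle fibre markers, and 3 of 3 Schwann cell markers fell. In the pair labelled wild type 3 of 5 red blood cell, 1 of 4 skin and 3 of 3 Schwann cell markers fell and 5 of 6 muscle fibre markers rose. Their part in the day 21 values was not tested.

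Cdkn1a, the arrest gene whose promoter window at the first start held the pair of half-sites with 0 mismatches, fell after injury in both genotypes. It was at 1013 and 1086 CPM for wild type and 1330 and 1358 CPM for knockout at day 0, higher in knockout by 0.36 (SE 0.0996, edgeR adjusted p = 0.0243). By day 7 it was at 478 and 483 CPM for wild type and 593 and 606 CPM for knockout. Its log2 fold change was -1.13 (edgeR adjusted p = 1.49e-05) in wild type and -1.16 (edgeR adjusted p = 9.4e-06) in knockout, while Mdm2, Ccng1, Pmaip1, Bax and Zmat3 rose in both. Of the 11 dissociation stress markers, 4 were also higher in knockout at day 0 and 10 fell by day 7 in each genotype, to sums of 6444 to 6878 TPM in wild type and 6001 to 6616 TPM in knockout, and their part in the Cdkn1a values was not tested. Sesn1, also a p53 target, stood at 84.0 and 67.9 CPM for wild type and 28.4 and 22.4 CPM for knockout at day 7, a log2 fold change of -1.58 (SE 0.287, edgeR adjusted p = 0.0301). That call was lost without any one library of day 0 or 7, with adjusted p up to 0.223, with no filter (0.0534) and by limma on log2(TPM + 0.1) (0.0523); its adjusted p was 0.000309 without the day 21 libraries. An uncharacterised transcript overlaps Cdkn1a on the opposite strand, and these counts are not known to use strand.

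Among 42 other p53 targets tested, leaving out the knocked-out Sesn1 and Sesn2, 5 were higher and 7 lower in knockout at day 0, or 28.6% of the list, which is near the shares of 14.8% higher and 12.6% lower over all genes. Thbs1, a matrix glycoprotein, was higher (1099 CPM for wild type and 2829 in knockout on average, log2 fold change 1.36, SE 0.197, edgeR adjusted p = 0.0014), as was Kitl, the ligand of Kit (0.79, SE 0.147, edgeR adjusted p = 0.004). Cd82, a tetraspanin of the cell surface, was lower (-0.82, SE 0.101, edgeR adjusted p = 0.000676), as was Sfn (-7.45, SE 0.711, edgeR adjusted p = 0.000472), with 67.8 CPM for wild type and 0.388 in knockout. Sfn encodes 14-3-3 sigma, which keratinocytes express, and all 4 skin markers were also lower in knockout. The part of the skin markers in the Sfn value was not tested. At day 7 edgeR called 0 of the 42, against 1.08% of all genes higher and 0.68% lower, and 13 had an unadjusted p under 0.05, against 14.3% of all genes. DESeq2 called 5 (Cdkn1a, Gadd45a, Perp, Gpx1, Gdf15; 5.26% of all genes) and the edgeR fit without day 21 called 10, those 5 among them (7.46% of all genes).

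By day 7, 10 of the 42 rose and 13 fell in wild type, and 11 rose and 14 fell in knockout. Over all genes 25.8% rose and 21.2% fell in wild type and 24.7% rose and 22.2% fell in knockout, so the counts that rose are near the shares over all genes. In the death list 5 of 9 rose and 2 fell in each genotype, and its median was 0.62 in wild type and 0.95 in knockout. Apaf1, the apoptosome scaffold, rose by 1.50 in wild type (SE 0.134, edgeR adjusted p = 1.48e-05), and Pidd1, which activates caspase-2, rose from 0.537 to 4.25 CPM, a log2 fold change of 2.98 (SE 0.433, edgeR adjusted p = 0.000325). Perp, a membrane protein of desmosomes, fell, with a log2 fold change of -2.63 (SE 0.149, edgeR adjusted p = 1.11e-06). Of the 4 skin markers 3 also fell by day 7 in wild type (median -3.17) and 1 rose in knockout, and their part in the Perp value was not tested. In the arrest list 1 of 9 rose and 4 fell in wild type, with 2 and 4 in knockout. Igfbp3, a secreted binding protein of insulin-like growth factors, rose by 1.86 in wild type and 2.34 in knockout, and Ephx1, an epoxide hydrolase, gave -1.46 and -1.47. Cd82 rose in knockout by 0.97 (SE 0.101, edgeR adjusted p = 3.1e-05), and its interaction was 0.83 (SE 0.142, edgeR adjusted p = 0.00728).

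**Figure D4:**
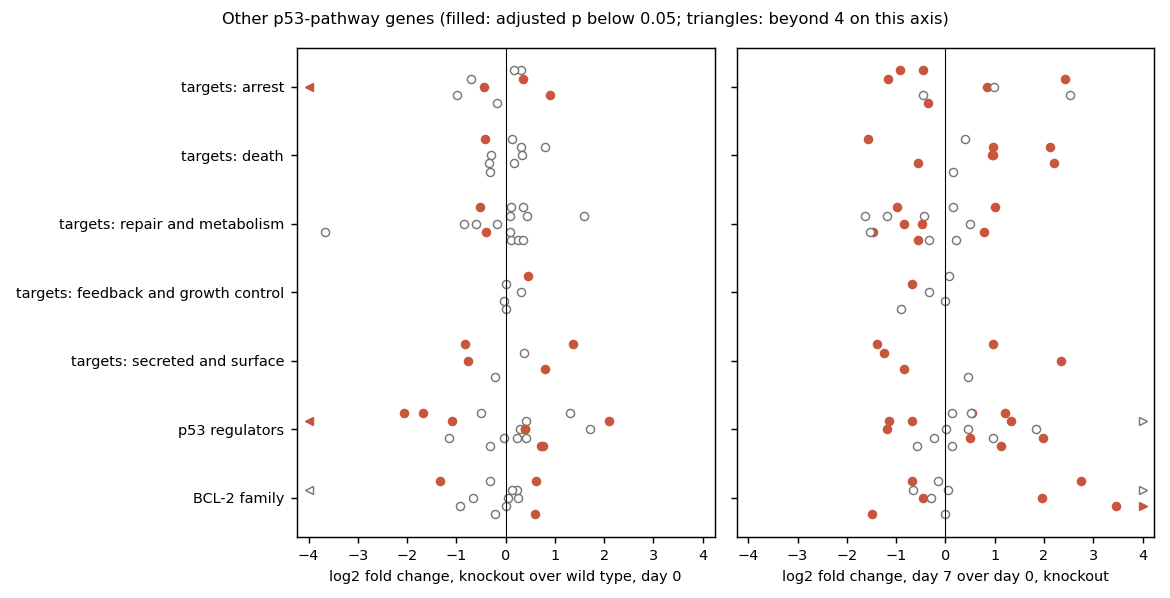
Each point is one gene of a list, with its edgeR log2 fold change on the horizontal axis (left: knockout over wild type at day 0; right: day 7 over day 0 in knockout) and the list on the vertical axis; red points passed an adjusted p of 0.05 and triangles lie beyond the axis limit of 4. The 44 other targets plotted include Sesn1 and Sesn2. On the left 12 of the 44 are red, 5 to the right and 7 to the left of 0, and on the right 26 are red, 11 and 15.

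Among 19 regulators of p53, 4 were higher and 4 lower in knockout at day 0, where 14.8% and 12.6% of all genes were. Atr, a kinase that activates p53 after replication stress, was at 3.44 CPM for wild type and 14.7 in knockout on average (2.10, SE 0.428, edgeR adjusted p = 0.00667). Rpl11, a ribosomal protein that binds Mdm2, averaged 103 CPM for wild type (SD 8.56) and 32.0 CPM in knockout (SD 10.6). Its log2 fold change was -1.69 (SE 0.205, edgeR adjusted p = 0.000709), and copies of it were not sought. At day 7 edgeR called 0 of the 19 between genotypes, against 1.08% of all genes higher and 0.68% lower. DESeq2 also called 0 (5.26% of all genes), and 1 had an unadjusted edgeR p under 0.05 (14.3% of all genes). By day 7 after injury 6 rose and 1 fell in wild type, against 25.8% and 21.2% of all genes. In knockout 6 rose and 3 fell, against 24.7% and 22.2%.

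The BCL-2 family list held 13 genes on which Bbc3, Pmaip1 and Bax act or to which they are related. Of these, 2 were higher and 1 lower in knockout at day 0 (14.8% and 12.6% of all genes). At day 7 edgeR called 0 (1.08% of all genes higher and 0.68% lower), and DESeq2 called 0 (5.26%). An unadjusted edgeR p under 0.05 was found for 1 (14.3% of all genes). Without day 21, 1 was called, Bok (7.46% of all genes). Bok, a pore-forming relative of Bax, rose in knockout from a mean of 12.1 to 81.4 CPM, a log2 fold change of 2.75 (SE 0.202, edgeR adjusted p = 3.48e-06), and its interaction was 1.71 (SE 0.269, edgeR adjusted p = 0.00536). Bcl2l1, which encodes the survival protein Bcl-xL, fell in knockout from 95.8 to 34.2 CPM, a log2 fold change of -1.49 (SE 0.134, edgeR adjusted p = 1.18e-05). By day 7, 4 of the 13 rose and 4 fell in wild type, and 4 rose and 3 fell in knockout, where 25.8% and 21.2% of all genes did so in wild type and 24.7% and 22.2% in knockout.

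The genes whose profile was nearest to each of the 10 were found by the root-mean-square difference of centred log2 CPM over the 12 libraries. Bok was nearest to Pmaip1 (0.21), where the median over all genes was 1.00. The nearest to Trp53 were Zfp830 (0.08) and Idh1 (0.11), to Mdm2 Taf5l (0.05) and Ncstn (0.07), and to Bbc3 Nup62 (0.18) and Qpct (0.20). Those of Bax were Alkbh3 (0.06) and Banf1 (0.08), and those of Fas Uap1 (0.11) and Tmbim1 (0.12). Ccng1 was nearest to Eif2b5 and Bin3, Phlda3 to Rpusd4 and Tysnd1, Zmat3 to Kctd5 and Timm9, and Trp53inp1 to Tmem135 and Asph. Among the 10 themselves, the closest pair was Ccng1 and Bax (0.22). These distances share the same libraries and days and are descriptions only.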

How the data were processed

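The authors deposited estimated counts per gene and a second table in TPM for 12 libraries made with SMART-Seq v4 and Nextera XT, per the labels' protocols. Another deposited table holds regularised log2 values corrected for a batch that is not named. The submitters' processing notes name kallisto 0.46.1, mm10 and GRCm38.p6. Counts were rounded and filtered with filterByExpr of edgeR 4.0.16 (15890 of 30154 genes kept), scaled by TMM, and fitted with 1 mean per group by robust quasi-likelihood. A gene is called at a Benjamini-Hochberg adjusted p under 0.05 over all genes tested. "Higher", "rose" and "fell" mean called. Tests used R 4.3.3. The 10 genes and all lists were chosen with earlier results of these data known. Other genes are named where they had the smallest adjusted p of their list or the profile nearest to one of the 10 (1 such gene is not reported here). Alternatives were DESeq2 1.42.0, other size factors, filters, a replicate block, limma 3.58.1 on log2(TPM + 1) and log2(TPM + 0.1), the batch-corrected log2 values, days 0 and 7 alone, and leaving out each library. Values under these alternatives were taken for the 10 genes, Sesn1 and Sesn2. Cdkn1a and the list genes have only their calls between genotypes at day 7, by DESeq2 and without day 21. On simulated counts edgeR recovered 137 of 200 changed genes among 15464, and 10 of its 147 calls were unchanged genes. Positions are from GENCODE M21. Copies of the 10 genes, Sesn1, Sesn2 and Cdkn1a were sought with BLAST 2.17.0.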

Additional observations from a re-analysis of the deposited data

Results flagged for a closer look

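The change from day 0 to day 7 differed between genotypes for 2 of the 10 genes, by a test of the difference itself. Over all genes tested, 6.08% were called with a larger change in knockout and 7.39% with a smaller one. For Pmaip1 the knockout change exceeded the wild-type change by a log2 fold change of 1.89 (SE 0.191, edgeR adjusted p = 0.000959), and for Bbc3 by 1.13 (SE 0.299, edgeR adjusted p = 0.034). For each gene both day 0 knockout libraries were below both day 0 wild-type libraries. Over the fits without 1 library the Bbc3 value was 0.83 to 1.50, and its call was lost in several of them.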

How the results depend on the processing

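The 3 lower genes of day 0 and the Pmaip1 interaction kept their direction in every alternative tried, and calls were lost for Trp53 alone among these, in 3 fits without 1 library. Counts of calls moved more. At day 7 between genotypes, 280 genes were called, with 787 by DESeq2, 1169 in the day 0 and 7 libraries alone, 825 on the batch-corrected log2 values, 138 on log2(TPM + 1) and 110 on log2(TPM + 0.1). Of the 10 genes, 1 was called there, with 2 by DESeq2 and without day 21, and 0 on either TPM scale. By label at day 21, 2 genes were called, with 471 by DESeq2, 57 with no filter, 23 with at least 10 counts in every library, 176 on the batch-corrected values and 0 on log2(TPM + 0.1). For the interaction 2141 genes were called, with 2911 by DESeq2, 3887 without day 21 and 3125 on the batch-corrected values. On log2(TPM + 1) and log2(TPM + 0.1) there were 1356 and 1334. Of the 10 genes, 4 were called by DESeq2, without day 21 and on the batch-corrected values (18.7%, 24.8% and 14.3% of all genes). The causes were not tested.

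The replicate numbers did not pair the libraries: correlations of deviations between the 15 pairs of groups were -0.14 to 0.070, none over 0.1. With the replicate block 0 of the 10 genes were called between genotypes at day 7 (Pmaip1 0.66, edgeR adjusted p = 0.06) and 1 gene in all at day 21, and Trp53inp1 lost its rise by day 7 in wild type (edgeR adjusted p = 0.0592). No other call of the 10 genes changed under it.

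Signs turned in values that did not pass the test. On the TPM scale, which is not scaled by TMM, the median gene moved by 0.24 by day 7 in wild type and by 0.12 in knockout, against 0.06 and 0.03 in CPM. On log2(TPM + 1), Mdm2 was 0.042 and Phlda3 0.018 between genotypes at day 0, and Zmat3 -0.24 at day 7. By day 7 Trp53 was 0.20, Bbc3 0.031 and Phlda3 0.087 in wild type and Trp53inp1 0.027 in knockout. By day 21 Ccng1 was 0.023 and Bbc3 0.039 in wild type and Zmat3 0.13 in knockout, and in the interaction Ccng1 was -0.047 and Zmat3 -0.050. On log2(TPM + 0.1) the same values were 0.042 and 0.019, -0.34, then 0.20, 0.033, 0.087 and 0.030, then 0.023, 0.042 and 0.22, and -0.051 and -0.013. On the batch-corrected values Bbc3 was 0.029 and Zmat3 -0.21 between genotypes at day 7, Mdm2 -0.032 between the labels of day 21, and Zmat3 -0.058 by day 21 in wild type.

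Leaving out each library in turn, which assumes that a lone library varies like the other groups, gave 1667 to 5166 genes called between genotypes at day 0 (2 to 4 of the 10), 15 to 619 at day 7 (0 to 2) and 0 to 865 at day 21. After injury it gave 3185 to 5928 genes by day 21 in wild type and 2665 to 5615 in knockout (3 to 6 of the 10), 4 to 7 of the 10 by day 7 in knockout, and 582 to 2852 genes in the interaction (1 to 4 of the 10). The values whose sign turned in such a fit were, between genotypes at day 0, Phlda3 (-0.19 to 0.084) and Zmat3 (-0.24 to 0.17), and at day 7 Bbc3 (-0.10 to 0.026), Zmat3 (-0.12 to 0.28) and Trp53inp1 (-0.015 to 0.092). Between the labels of day 21 they were Trp53 (-0.44 to 0.013), Mdm2 (-0.019 to 0.15), Fas (-0.036 to 0.38), Trp53inp1 (-0.00030 to 0.18), Sesn1 (-0.55 to 0.32) and Sesn2 (-2.20 to 2.73). By day 7 they were Sesn1 in wild type (-0.031 to 0.28) and Phlda3 in knockout (-0.0099 to 0.24). By day 21 in wild type they were Trp53 (-0.15 to 0.26), Bbc3 (-0.25 to 0.074), Fas (-0.29 to 0.12), Sesn1 (-0.66 to 0.17) and Sesn2 (-3.16 to 0.041), and in knockout Zmat3 (-0.30 to 0.089) and Sesn1 (-0.14 to 0.54). In the interaction they were Ccng1 (-0.091 to 0.17) and Zmat3 (-0.084 to 0.33).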
